A study of Mus musculus with 11 samples.

Results

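The miRNA content of mouse embryonic stem (mES) cells that carry floxed but intact Trim71 alleles was described from all 592 miRNAs of the deposited table. Trim71 encodes an RNA-binding protein of stem cells and is a known target of let-7. Of the 11 small RNA libraries of the series, 6 were Trim71fl/fl, and the 5 of these with a Trim71-/- library of the same day were used (days 1, 3, 4, 5 and 6), whereas the Trim71fl/fl library of day 2 was left out. No comparison between genotypes was made. The libraries came from male C57BL/6 mES cells grown with FCS and LIF and sorted for SSEA-1 before harvest. The cells were homozygous for the floxed last exon and for Rosa26-CreERT2, a tamoxifen-inducible Cre, so the baseline cells carried both alleles too. According to the methods of the study the uninduced cells received the solvent DMSO, while the sample labels give 1 tamoxifen protocol for all libraries. 2 clones were used, with 3 libraries from clone 1 (days 1, 5 and 6) and 2 from clone E3 (days 3 and 4). Nothing in the sources says that libraries of 1 clone were separate cultures beyond the day label, so errors given below measure the spread between these libraries, which may be technical. Trim71 mRNA itself was not measured in these small RNA libraries.

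As background, a miRNA hairpin is cut by Drosha and Dicer into a duplex with a 5p arm and a 3p arm. As a rule 1 arm is loaded into an Argonaute protein and the other is degraded, and the loaded arm recognises mRNAs mainly through its seed, bases 2 to 8. Mouse ES cells are known for the miR-290 cluster, which runs from miR-290a to miR-295 and whose miRNAs promote rapid cell division, and for low levels of mature let-7, whose processing the RNA-binding protein Lin28 blocks. The miR-302 and miR-367 cluster marks the primed state of pluripotency, and the miR-17-92 cluster and its paralogues are known for driving proliferation.

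The values are read counts normalised by the authors and corrected for batch, with values under 1 set to 1, and no raw counts were used here, so the depth of each library is unknown. A mature miRNA is read from end to end, so a value needs no division by length, but ligation efficiency differs between sequences. The summed values of the libraries were 3757254, 3865295, 4332525, 2742673 and 3762894 on days 1, 3, 4, 5 and 6. In 591 of 592 miRNAs the sum of the 2 same-day genotypes was equal to within 0.1% over the days on which neither value was at the floor, so the spread between the 5 libraries is that of the same-day genotype differences and holds no variation between days that both genotypes shared. A total of 51 values, each of another miRNA, stood at the floor of 1, of which 21 were in the day 5 library and 24 in the day 6 library, and the results of miR-21a, miR-200a, let-7 and the Hox-cluster miRNAs, which rest on these libraries, are given with and without them. Ranks of all miRNAs agreed between pairs of libraries with Spearman's rho of 0.858 to 0.982 over 10 pairs, a description across miRNAs.

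The sequences of the miRNAs that carried most of the value are shown first, because a few seeds account for them. They are the leading members of the 5 seed groups with the largest summed value, with miR-302d-3p added as a member of such a group from another cluster and miR-20a-5p as the leading member of a related group. Sequences are mature miRNAs from RefSeq (GRCm38.p6), written 5′ to 3′, with the seed in capitals. The first 3 share a seed and are 5p arms of the miR-290 cluster on chromosome 7:
miR-292-5p: aCUCAAACugggggcucuuuug
miR-293-5p: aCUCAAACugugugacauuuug
miR-290a-5p: aCUCAAACuaugggggcacuuu
The next 4 share another seed, and the last of them comes from the miR-302 cluster on chromosome 3:
miR-291a-3p: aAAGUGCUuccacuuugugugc
miR-295-3p: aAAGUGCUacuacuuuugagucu
miR-294-3p: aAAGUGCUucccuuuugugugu
miR-302d-3p: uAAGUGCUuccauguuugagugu
In miR-20a-5p of the miR-17-92 cluster on chromosome 14 the letters AAGUGC lie 1 base further from the 5′ end:
miR-20a-5p: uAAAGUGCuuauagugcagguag
The remaining leading seeds belong to miR-293-3p of the same cluster as miR-292-5p, to the miR-21 pair and to the miR-148 family:
miR-293-3p: aGUGCCGCagaguuuguagugu
miR-21a-5p: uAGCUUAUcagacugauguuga
miR-21c: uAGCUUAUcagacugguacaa
miR-148a-3p: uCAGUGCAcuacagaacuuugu
miR-148b-3p: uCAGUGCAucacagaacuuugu
miR-152-3p: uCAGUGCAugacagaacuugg

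The ranking was steep. Of 592 miRNAs, 5 held 50% of the summed mean, 12 held 75%, 42 held 90% and 202 held 99%, so that 390 miRNAs shared the remaining 1%. Mean values ran from 4.80 to 783389, a difference of 17.32 on the log2 scale. There were 11 miRNAs with a mean over 100000 and 37 over 10000, and 26 had a mean under 10. The 20 miRNAs of highest mean held 78.0% to 83.8% of each library.

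The most abundant miRNA was miR-292-5p, with 702557, 825960, 1200000, 371018 and 817411 on days 1, 3, 4, 5 and 6, of which the day 4 value is rounded to 3 digits in the table. It made up 20.6% ± 5.14 of a library (SD, n = 5) and led 4 of the 5 libraries. Next came miR-291a-3p, with 493971, 424492, 320970, 439656 and 403136 on the same days (11.7% ± 3.19), which led the library of day 5. These 2 stood in opposite order on the extreme days, since day 4 held the highest miR-292-5p and the lowest miR-291a-3p, while day 5 held the lowest miR-292-5p. At rank 3, miR-293-3p was steadier, at 236019, 275018, 314163, 277490 and 263360 (7.55% ± 1.48). All of them are products of hairpins of the miR-290 cluster.

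The fourth rank depended on 1 library. The miRNA miR-21a-5p, widely known as an oncogenic miRNA that responds to Stat3, was at 235913, 262973, 329230 and 263723 on days 1, 3, 4 and 6, but at the floor of 1 on day 5. The same-day sum puts its day 5 value before the floor at -204460, which cannot be a read count. Since the 2 same-day values are tied by their sum, a deviation of the Trim71-/- library of that day and one of the Trim71fl/fl library cannot be told apart, here and for other floored values, so the value of 1 is not a measured level of the floxed cells. Its mean share was 5.54% ± 3.13 of a library, and 6.92% without day 5. Its rank among all miRNAs was 2 to 4 in the other 4 libraries and 572 on day 5.

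Ranks 5 to 12 held miR-295-3p (mean 163748 ± 34756, SD, n = 5), miR-293-5p (155035 ± 30147), miR-182-5p (150227 ± 19089), miR-148a-3p (143704 ± 48672), miR-292-3p (133583 ± 42757), miR-7a-5p (132630 ± 15385), miR-294-3p (105978 ± 18535) and miR-183-5p (99435 ± 51098). Among them miR-182-5p and miR-183-5p come from 1 transcript known from sensory cells, and miR-7a-5p is known for its role in endocrine and neural cells. After these the level dropped to miR-92a-3p (57332 ± 6954) of the miR-17-92 cluster and its paralogue, followed by miR-20a-5p (41143 ± 17110), miR-96-5p (29419 ± 2491), miR-27b-3p (25407 ± 6646), miR-26a-5p (25269 ± 2171), miR-22-3p (24022 ± 15737), miR-20b-5p (21760 ± 5149) and miR-143-3p (21522 ± 8316). The spread was uneven, since miR-96-5p stayed between 25692 and 32658, whereas miR-22-3p ran from 8861 on day 3 to 49077 on day 4 and miR-20a-5p from 13032 on day 4 to 57682 on day 6. A set of 14 miRNAs was among the top 20 of every library.

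**Figure D1:**
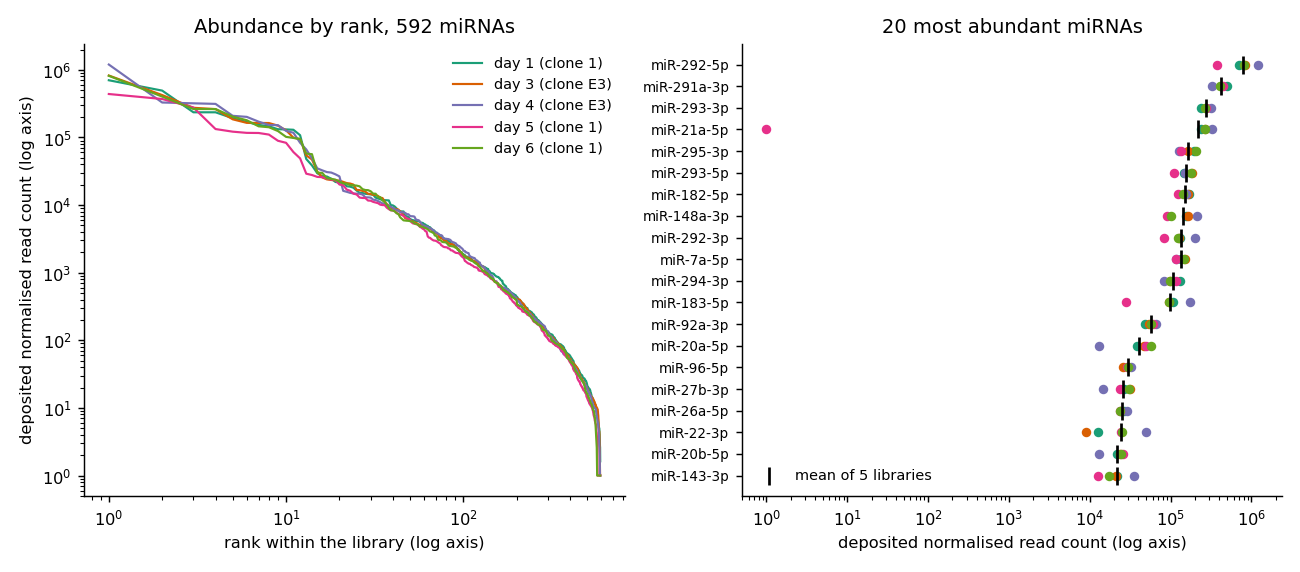
Left, deposited normalised read count against rank within each library, both axes logarithmic, 1 line per library. Right, the 20 miRNAs of highest mean with 1 point per library (colours as on the left) and a bar at the mean, on a logarithmic axis. The 5 curves fall with a like slope, and miR-21a-5p on day 5 sits at 1, far from its other values of 235913 to 329230.

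Neighbouring ranks for the most part changed order between libraries. Among the 19 pairs of neighbours in the top 20 by mean, 2 kept their order in all 5 libraries. These were miR-291a-3p over miR-293-3p, by 0.60 ± 0.37 on the log2 scale (SD, n = 5, exact sign-flip test, two-sided, p = 0.062), and miR-7a-5p over miR-294-3p, by 0.33 ± 0.30 (exact p = 0.062). With 5 libraries 0.062 is the smallest p this test can give, so no pair could pass 0.05, and the smallest adjusted value over the 19 pairs was 0.594 (Benjamini-Hochberg). In 4 pairs the miRNA with the higher mean was the higher one in fewer than 3 libraries. The lead of miR-292-5p over miR-291a-3p was 0.83 ± 0.78 and held in 4 of 5 libraries (exact p = 0.125).

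The miR-290 cluster dominated every library. Its 18 listed miRNAs held 56.4%, 56.7%, 57.7%, 59.1% and 57.7% of the value on days 1, 3, 4, 5 and 6, that is 57.5% ± 1.06 (SD, n = 5), although they are 3.04% of the miRNAs. The share of the whole cluster thus varied less than that of its leading member. Within the cluster miR-292-5p held from 22.9% on day 5 to 48.0% on day 4, and miR-291a-3p from 12.8% to 27.1%. Of the other members miR-293-3p held 13.1% ± 2.32 of the cluster, miR-295-3p 7.84% ± 1.75, miR-293-5p 7.32% ± 1.02, miR-292-3p 6.19% ± 1.12 and miR-294-3p 5.16% ± 1.53. The remaining 11 members held at most 1.61% each in any library. Without miR-292-5p in table and list, the cluster still held 46.3% of the value.

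By position, 14 of these miRNAs come from 7 hairpins on the plus strand at chr7:3218626-3220841 (GRCm38), where 6 of the hairpins overlap an exon that the GENCODE annotation gives to Nlrp12 on the minus strand, and miR-290a lies between genes. The other 4 come from miR-290b and miR-292b, which lie on the minus strand inside the hairpins of miR-290a and miR-292, and held 1.25% ± 0.19 of a library. It is not given in the sources used here whether counting used the strand, so reads of the overlapping hairpins may not be told apart. The second cluster known from pluripotent cells, miR-302 and miR-367, was far lower. Its 9 miRNAs at chr3:127545228-127545807 held 0.461% ± 0.12 of a library, led by miR-302d-3p (7298 ± 1083) and miR-302b-3p (6886 ± 1685), and miR-367-3p was at 77.0 ± 25.6.

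Other groups held between 0.00445% and 7.49%. The miR-183, miR-96 and miR-182 cluster held 7.49% ± 0.73, led by miR-182-5p, and ranged only from 6.54% to 8.25%. The 28 miRNAs of miR-17-92 and its paralogues held 6.02% ± 1.81, led by miR-92a-3p, with 3.69% on day 4 and 8.70% on day 5 as extremes. The miR-148 and miR-152 family held 4.23% ± 0.78, and miR-148a-3p, a miRNA known to target DNA methyltransferases, made up 90.8% of it. The miRNAs named miR-297, miR-466, miR-467 and miR-669, repeated hairpins known mainly from an intron of Sfmbt2, counted 72 (12.2% of all) but held 1.87% ± 0.42, led by miR-467a-5p (14502 ± 1903). This list was made by name, and 61 of its members lay in 1 group at chr2:10466663-10518279, which held 1.73% ± 0.39, while 6 lay on other chromosomes. Its members are near-identical copies, so reads could be divided among them in ways the files do not show, and values of single members are uncertain.

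The next groups each held at most about 1% of a library. The miR-200 family, which includes miR-141 and miR-429 and is known from epithelial cells, held 1.03% ± 0.11 (led by miR-200a-3p). The miR-23, miR-27 and miR-24 clusters held 0.975% ± 0.22 (miR-27b-3p), the miR-30 family 0.878% ± 0.13 (miR-30a-5p) and the miR-26 family 0.783% ± 0.12 (miR-26a-5p). The Dlk1-Dio3 imprinted cluster, whose expression is known as a mark of fully reprogrammed pluripotent cells, held 0.557% ± 0.08 over 47 miRNAs, led by miR-381-3p (4380). Lower still were the miR-103 and miR-107 family (0.408%, miR-103-3p), the miR-191 and miR-425 cluster (0.384%, miR-191-5p), the miR-15 and miR-16 family (0.337%, miR-16-5p), the miR-99, miR-100 and miR-125 group (0.245%, or 0.281% without day 5, when 3 of its 8 members were at the floor, led by miR-99b-5p), the miR-130 and miR-301 family (0.212%, miR-130a-3p), the X-linked cluster (0.149%, miR-881-3p), the miR-181 family (0.125%, miR-181d-5p) and the miR-34 and miR-449 family (0.104%, miR-34c-5p). At the low end stood the miR-29 family (0.0605%, miR-29b-3p), the Hox-cluster miR-10 and miR-196 (0.0261%, or 0.0307% without day 5, when 3 of its 4 members were at the floor, led by miR-196a-1-3p) and the miR-221 and miR-222 cluster (0.00445%, miR-221-3p). The 267 miRNAs outside all 24 lists held 9.89% ± 0.53, led by miR-7a-5p, miR-22-3p and miR-143-3p.

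The let-7 and miR-98 family, abundant in differentiated cells, held 0.879%, 0.747%, 0.771%, 1.01% and 0.0208% on days 1, 3, 4, 5 and 6. In the day 6 library 16 of its 19 members stood at the floor, while no let-7 value was at the floor in another library, and here too the floxed library and its same-day partner cannot be told apart as the deviating one. The mean was 0.686% ± 0.39 with day 6 and 0.852% without it. The leading member let-7g-5p was at 11841, 10347, 11022 and 10688 on days 1, 3, 4 and 5, and at 1 on day 6. Of this family 4 members had a mean over 1000, namely let-7g-5p, let-7f-5p, let-7i-5p and let-7a-5p.

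**Figure D2:**
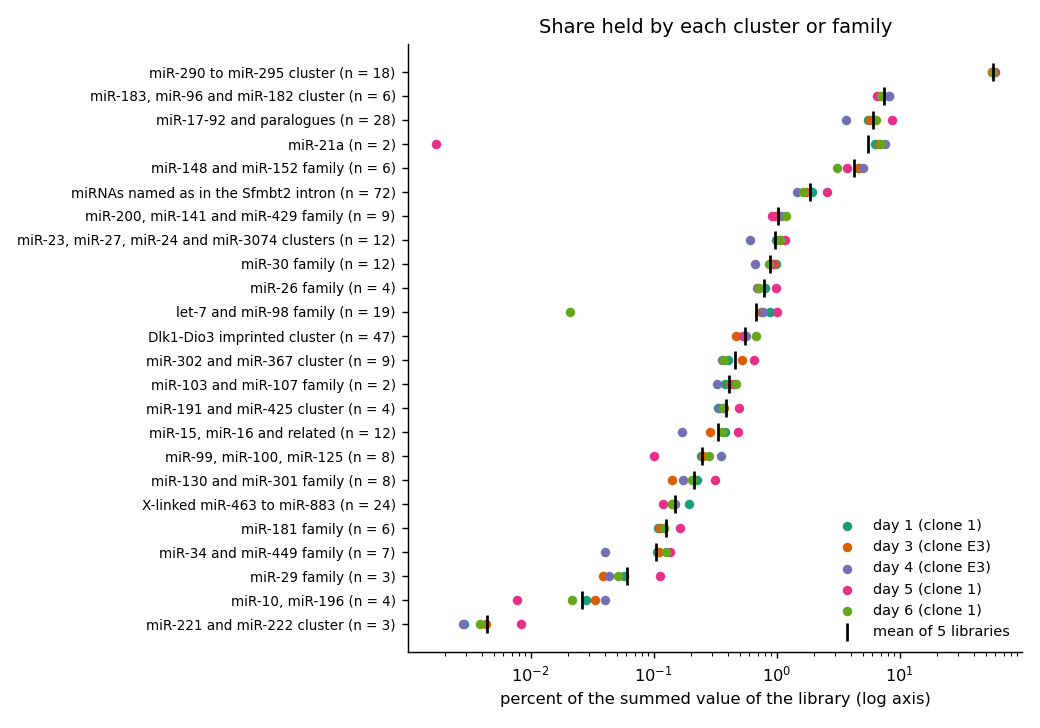
Share of each library's summed value held by the 24 clusters and families, on a logarithmic axis, with 1 point per library and a bar at the mean; n is the number of listed miRNAs. The miR-290 cluster lies at 56.4% to 59.1% in all 5 libraries, and the 2 points far to the left of their group are miR-21a on day 5 (0.00171%) and let-7 on day 6 (0.0208%).

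Lists of miRNAs known from ES cells and other cell types were then read, all chosen with earlier results of these data known. The 27 ES cell miRNAs held 58.0% ± 1.13 of the value and none was at the floor. They are the 18 miRNAs listed for the miR-290 cluster and the 9 in the chromosome 3 cluster led by miR-302d-3p. Their share therefore restates results given above and is no independent check of the label of the cells. Neural miRNAs held 0.136% ± 0.01 over 10 members, led by miR-9-5p (2316), and the blood list held 0.0926% ± 0.04 over 6, led by miR-142-3p (1689). The fibroblast and mesenchymal list held 0.587% ± 0.14 over 8 members, with a range of 0.476% to 0.815%, of which miR-143-3p alone made up 97.3%. Endothelial miR-126a held 0.144% ± 0.02. Muscle miR-499-5p was at 243 (rank 243 of 592) and miR-1a-3p at 32.3 (rank 456), and liver miR-122-5p was at 13.6 (rank 534, with its day 5 value at the floor). Whether the non-ES lists come from other cells left after the sort was not tested.

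By seed, 2 groups stood out. RefSeq sequences were found for 467 of the 592 miRNAs, which held 92.9% of the value (91.7% to 93.6% over libraries), and these fell into 368 seeds. The other 125, among them miR-292-3p, entered no seed group and are not in the shares by seed. The 3 miRNAs of the miR-292-5p seed group held 22.7%, 26.3%, 31.3%, 17.9% and 26.7% on days 1, 3, 4, 5 and 6. The 5 miRNAs of the miR-291a-3p seed group, in which miR-302d-3p and miR-302b-3p joined 3 members of the miR-290 cluster, held 22.1%, 18.2%, 12.5%, 25.7% and 19.1% on the same days. The second group was the larger one on day 5 only, and on day 4 it held the smallest share of the 5 libraries while the first held the largest. The mean shares were 24.98% ± 5.02 and 19.5% ± 4.89 (SD, n = 5).

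Next in order were miR-293-3p, alone with its seed (7.55%), the pair of miR-21a-5p and miR-21c (5.54%, nearly all of it miR-21a-5p), the miR-148 group (4.18%), miR-182-5p alone (4.10%), miR-7a-5p with miR-7b-5p (3.69%), the 6 miRNAs of the miR-20a-5p group (3.16%), the 6 of the miR-92a-3p group (2.62%) and miR-183-5p alone (2.57%). The letters AAGUGC were searched in the seeds of the matched miRNAs on the miRNA's own strand, and 13 miRNAs of 4 seeds held them, 2.78% of the matched miRNAs. Those 13 held 22.8% ± 6.14 of the value of all 592 miRNAs, from 13.9% on day 4 to 30.7% on day 5. These were all members of the miR-291a-3p group and of the miR-20a-5p group, whose seeds overlap by 6 letters as printed above, and miR-291b-3p and miR-290a-3p.

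Members of a family did not always keep step. In the miR-20a-5p seed group, all 6 members, which are the miRNAs of the miR-17-92 type known for repressing inhibitors of the cell cycle, had their lowest value on day 4. For miR-20b-5p the values were 21980, 23534, 12911, 25904 and 24472 on days 1, 3, 4, 5 and 6, and for miR-17-5p they were 14566, 14200, 6754, 16944 and 16711. In contrast miR-92a-3p, which comes from the same clusters, had its highest value on day 4, with 48056, 54419, 66589, 60913 and 56683, although as a share of its library it was highest on day 5 (2.22%). The miR-148 group was similar, since miR-148a-3p was highest on day 4 (209219) and miR-148b-3p lowest (4773, against 11628 to 14230 in the other libraries). Beside these stands the structure of the table, in which a high value in a floxed library goes with a low one in its same-day partner, and the part of that structure in these days was not tested.

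**Figure D3:**
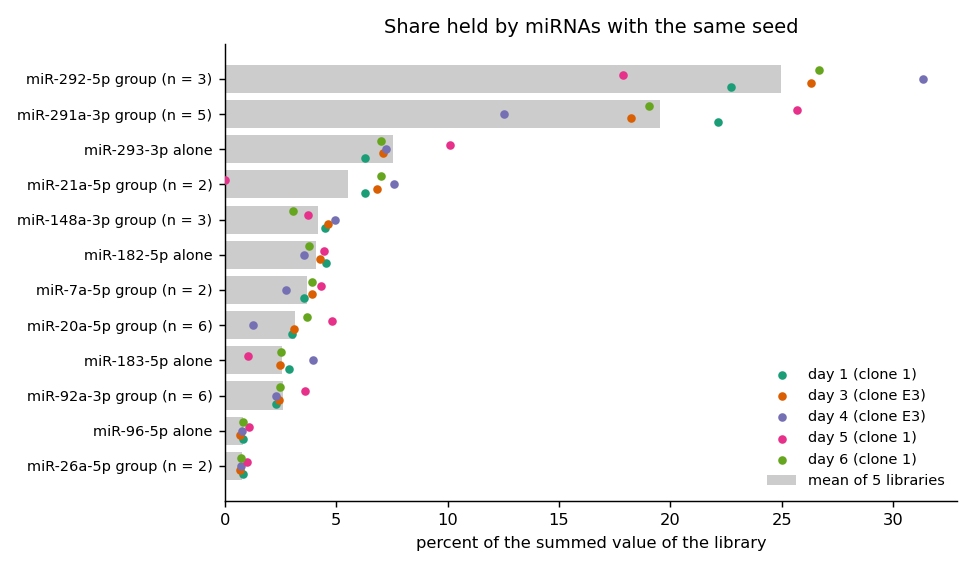
Share of each library's summed value held by the 12 largest groups of miRNAs with an identical seed, named by their most abundant member, with a bar at the mean and 1 point per library. The miR-292-5p group ranges from 17.9% (day 5) to 31.3% (day 4) and the miR-291a-3p group from 12.5% (day 4) to 25.7% (day 5).

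In the genome most of the value came from clustered hairpins. With hairpins on 1 strand joined where gaps were at most 10 kb, 289 miRNAs fell into 40 groups of several hairpins that held 76.4% ± 2.07 of the value, and 265 miRNAs of 201 single hairpins held 15.9% ± 3.22. Another 34 miRNAs could come from more than 1 place and held 7.57%, among them miR-92a-3p and miR-7a-5p. Chromosome 7 held 57.7% of the value, chromosome 6 held 11.9% with miR-182-5p and miR-148a-3p in the lead, and chromosome 11 held 6.80%, led by miR-21a-5p. Among miRNAs of a single place, those that overlap an exon of a gene on the opposite strand held the most (56.3% ± 1.04, 24 miRNAs led by miR-292-5p). Introns of protein-coding genes on the same strand held the largest number of miRNAs but only 6.16% ± 0.43 of the value, and miRNAs between genes held 15.4% ± 1.2. Outside the miR-290 cluster, the leading hairpins lay at chr6:30165918-30169737 (miR-183, miR-96 and miR-182, minus strand, between genes), at chr11:86584067-86584158 (miR-21a, minus strand, within an exon of Vmp1) and at chr6:51269812-51269910 (miR-148a, minus strand, between genes), all on GRCm38. The miR-17-92 hairpins lay at chr14:115043671-115044506 on the plus strand within the host transcript Mir17hg, and their miRNAs of a single place held 1.68% ± 0.75 of the value. The mature length was 22 bases for 264 of 467 matched miRNAs (56.5%), which held 73.6% of the matched total, within a range of 18 to 26 bases. The first base of the mature miRNA was U in 191 of 467 matched miRNAs (40.9%) and A in 141 (30.2%). By value, A was first at 59.9% ± 1.5 of the matched total and U at 34.3% ± 2.24, since the leading members of the miR-290 cluster begin with A.

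The ratio of the arms was then taken for each of the 179 hairpin names, or stems, with both a 5p and a 3p miRNA in the table. These stems held 90.4% ± 1.18 of the value. For another 86 names only the 5p arm was listed and for 102 only the 3p arm, and 46 miRNAs had no arm in their name. In each library the higher arm of each stem together held 88.4% to 89.2% of the value of these stems. The arms differed strongly and about evenly in direction. By limma on the log2 ratio (two-sided, Benjamini-Hochberg adjusted p under 0.05) the 5p arm was higher in 84 stems, which is 46.9% of those tested, and the 3p arm in 76, which is 42.5%, so that 160 stems or 89.4% were called. The test takes the 5 libraries as independent, although 3 are of clone 1 and 2 of clone E3. Day effects shared by both genotypes had been removed. The p-values and calls thus rest on the spread of same-day genotype differences, not on that between independent cultures. The 19 stems not called included 6 with an arm at the floor. With the 19 stems that had a floored arm left out, 75 and 73 of 160 were called. Of those 19 stems 13 were called with all libraries and 17 when the library with the floored arm was left out, with no call in the opposite direction.

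The 5p arm was higher in all 5 libraries in 77 stems, the 3p arm in 74, and the order was mixed in 28. Same-day sums had been made equal across days, which favours 1 order for arms of unlike level. These counts are therefore no further evidence for the calls. The median stem had an 8.22-fold difference between its arms on the log2(value + 1) scale, which understates differences of arms near the floor. In 82 stems the difference was over 10-fold and in 23 over 100-fold, and 22 stems lay within 2-fold. Stems of higher level had larger ratios. The 60 stems of highest summed mean (2829 and above) had a median of 51.4-fold, the middle 60 of 9.99-fold and the lowest 59 of 2.72-fold, with Spearman's rho of 0.58 between the summed mean and the absolute log2 ratio across 179 stems, a description in which a low arm near the floor bounds the ratio of low stems. The authors removed miRNAs with low means in both genotypes, so stems with a very low second arm may be listed with 1 arm only. This too bounds the ratios of low stems. The median and the counts by fold hold only for stems with both arms listed. Taken over all these stems, 5p arms held 51.5%, 55.0%, 59.2%, 41.9% and 55.4% of the value on days 1, 3, 4, 5 and 6, and the extreme days were those on which miR-292-5p was highest and lowest. The low share of day 5 also rests on miR-21a-5p, which stood at the floor of 1 that day. On the other days miR-21a-5p was at 235913 to 329230. A share without this stem was not computed.

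**Figure D4:**
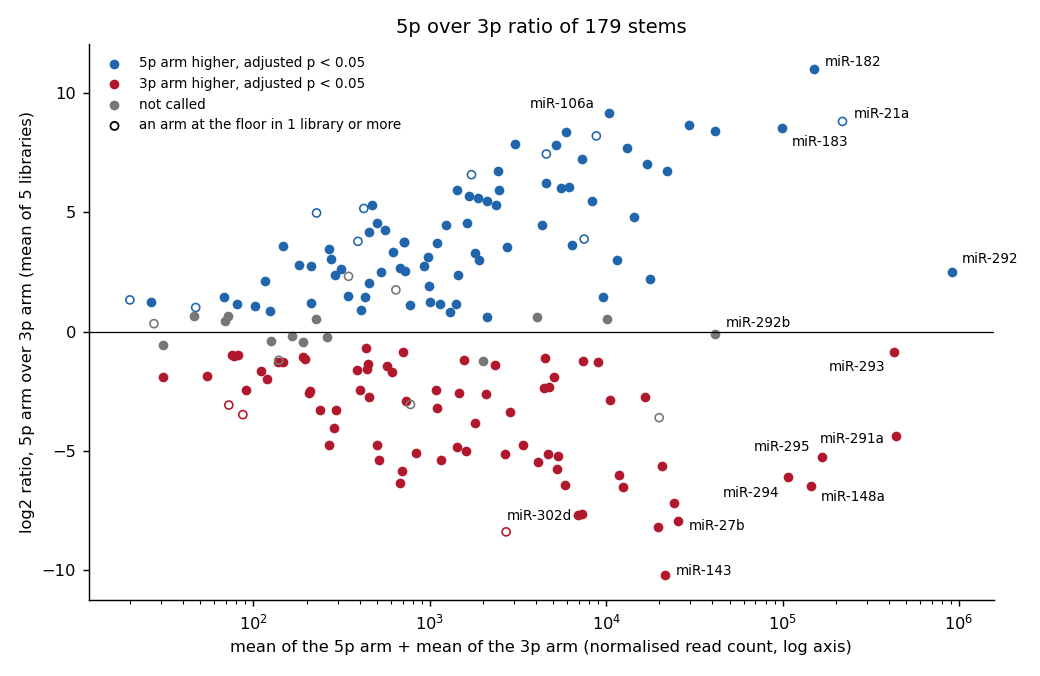
Log2 ratio of the 5p to the 3p arm (mean of 5 libraries) against the summed mean of both arms (logarithmic axis) for 179 stems, coloured by the limma call, with open points for stems that had an arm at the floor. Points fan out with level in both directions, from miR-182 at 11.01 to miR-143 at -10.21, while miR-292, miR-293 and miR-292b at high level lie nearer to 0.

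Hairpins of the miR-290 cluster differed in which arm was higher, and this was the group with the most abundant second arms. In miR-292 the 5p arm was higher, with log2 ratios of 2.43, 2.69, 2.57, 2.15 and 2.71 on days 1, 3, 4, 5 and 6 (mean 2.51 ± 0.16 SE, limma adjusted p = 9.77e-06), so its lower arm, miR-292-3p, still held 14.6% of the stem and was at rank 9 of all miRNAs. In miR-290a the 5p arm was higher too (3.65 ± 0.20 SE, limma adjusted p = 5.50e-06). The 3p arm was higher in miR-291a (-4.37 ± 0.17 SE), miR-295 (-5.25 ± 0.26), miR-294 (-6.10 ± 0.21) and miR-290b (-5.22 ± 0.24), each in 5 of 5 libraries. These ratios thus cover both directions among neighbouring hairpins of a single cluster.

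Both arms of miR-293 were among the 6 most abundant miRNAs. Its ratios were -0.69, -0.57, -1.05, -1.33 and -0.55 (mean -0.84 ± 0.18 SE, limma adjusted p = 0.00499), with the 3p arm higher in all 5 libraries, and the 5p arm held 36.2% of the stem. Called with all 5 libraries, it was not called with the 2 libraries of clone E3 alone (-0.81, limma adjusted p = 0.0840). The stem of miR-292b was close to balance, with 0.39, 0.08, -0.02, 0.15 and -1.05 (mean -0.09 ± 0.24 SE, limma adjusted p = 0.720), and its sign turned without day 6 (0.15). In miR-291b the 5p arm was higher in 4 of 5 libraries (0.53 ± 0.22 SE, limma adjusted p = 0.0617), which did not pass. Of the 9 stems of the cluster with both arms, 2 were called 5p-higher, 5 called 3p-higher and 2 not called. Among all 179 stems, 46.9% were called 5p-higher and 42.5% 3p-higher, and no test of the difference was made.

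A lower arm with a mean over 1000 was found in 19 stems. Of these, 7 were in the miR-290 cluster, namely the 3p arms of miR-292 and miR-291b and the 5p arms of miR-293, miR-291a, miR-292b, miR-295 and miR-294. The others included miR-335 from an intron of the imprinted gene Mest (-2.72 ± 0.22 SE, limma adjusted p = 2.90e-05), miR-423 (-1.26 ± 0.15) and miR-106b (1.46 ± 0.20), each with 1 order in 5 of 5 libraries. These 3 were chosen after their values were seen.

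The largest ratios toward the 5p arm among stems without a floored value were those of miR-182 (11.01 ± 0.24 SE, limma adjusted p = 3.18e-07), miR-106a (9.17 ± 0.22), miR-96 (8.65 ± 0.25), miR-183 (8.54 ± 0.50) and miR-20a (8.42 ± 0.24). All 3 hairpins of the miR-183, miR-96 and miR-182 cluster were thus in this set, and 99.9% of the summed value of the cluster was in 5p arms. The mean of miR-182-5p was 150227 against 75.2 for miR-182-3p. Toward the 3p arm the largest were miR-143 (-10.21 ± 0.41 SE, limma adjusted p = 1.27e-06), miR-101a (-8.19 ± 0.39), miR-27b (-7.95 ± 0.16), miR-302b (-7.71 ± 0.22) and miR-302d (-7.67 ± 0.17). The ratio of miR-27b was among the steadiest, between -8.26 and -7.65, whereas miR-143 ran from -11.97 on day 4 to -9.28 on day 6. The abundant stem of miR-148a favoured the 3p arm (-6.50 ± 0.24 SE) in 5 of 5 libraries.

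The ratio of miR-21a was 12.55, 12.04, 12.23 and 11.83 on days 1, 3, 4 and 6 and -4.55 on day 5, where its 5p arm stood at the floor. Its mean was 8.82 ± 2.71 SE (limma adjusted p = 0.0204) with all libraries and 12.16 without day 5 (limma adjusted p = 8.96e-07), and the call was lost when any other library was left out (adjusted p of 0.0508 to 0.0727). The stem of miR-200a likewise had a floored 5p arm on day 5. Its 3p arm was higher in 5 of 5 libraries, with ratios of -1.10, -1.50, -0.47, -12.99 and -1.98 on days 1, 3, 4, 5 and 6, but it was not called with all libraries (-3.61 ± 1.92 SE, limma adjusted p = 0.116) and was called without day 5 (-1.27, limma adjusted p = 0.00689). Among the 5 stems nearest to 0 at a summed mean of at least 1000, miR-30e was at 0.62 ± 0.25 SE (limma adjusted p = 0.0515), miR-130b at 0.61 ± 0.21 (0.0312, 5p higher in 4 of 5 libraries and not called when day 1, 3, 4 or 6 was left out) and miR-466c, 1 of several near-identical copies, at 0.81 ± 0.14 (0.00176).

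**Figure D5:**
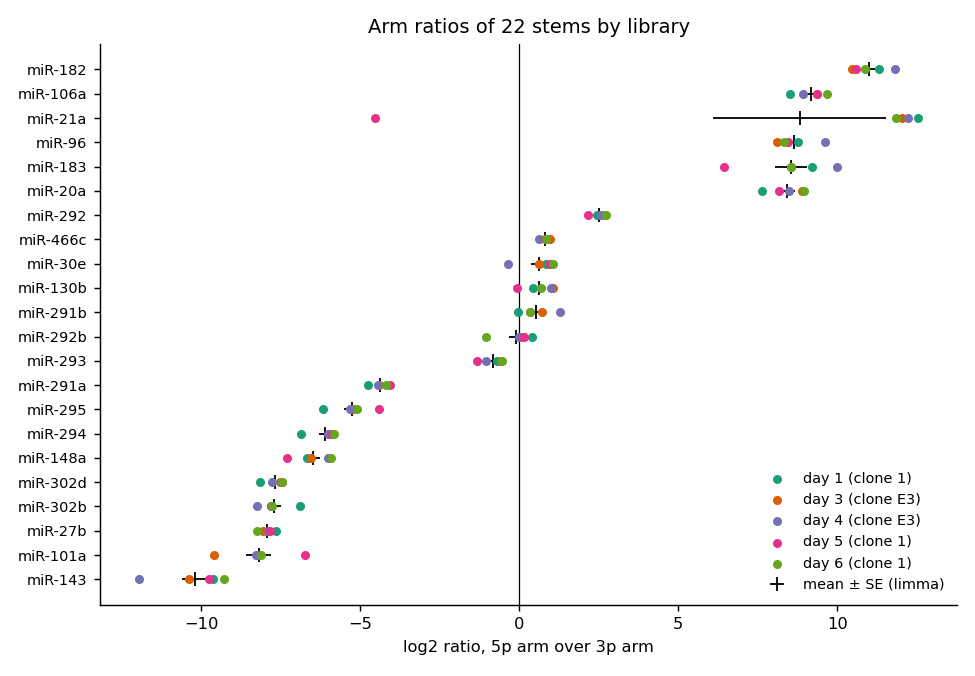
Log2 ratio of the 5p to the 3p arm in each of the 5 libraries (points) with the mean and its limma standard error (black) for the 22 stems named by rule. The points of a stem lie close together next to the full range of stems, with miR-21a on day 5 at -4.55 as the exception. Some stems span more than the distance to a neighbouring stem, among them miR-183 (6.44 to 9.98), miR-101a (-9.59 to -6.73) and miR-143 (-11.97 to -9.28). Besides miR-21a, the stems miR-30e, miR-130b, miR-291b and miR-292b have points on both sides of 0.

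Read by list against the background of 46.9% and 42.5%, some families had 1 favoured arm and others did not. The 3p arm was called higher in 4 of 4 stems of the miR-302 cluster, in 3 of 3 of the miR-148 and miR-152 family, in 3 of 3 of the miR-23, miR-27 and miR-24 clusters, and in 3 of 4 of the miR-200 family, with miR-200a called without day 5 only. The 5p arm was called higher in 3 of 3 stems of the miR-183 cluster, in 4 of 5 let-7 and miR-98 stems (let-7d was called only without day 6, and all 5 had a floored arm that day) and in 3 of 4 miR-30 stems. Of the miR-17-92 type clusters, 8 of 11 stems favoured the 5p arm, and the exceptions were miR-25, miR-363 and miR-19a, whose 3p arms were higher. As background, the miR-17, miR-20, miR-93, miR-106 and miR-18 hairpins are commonly known by their 5p products, and the miR-19, miR-25 and miR-92 types by their 3p products. Several other lists were mixed, given here as stems called for the 5p arm, called for the 3p arm and not called. They were the Dlk1-Dio3 cluster (4, 8 and 1), the miR-290 cluster (2, 5 and 2) and the X-linked cluster (4, 2 and 3). So were the miR-130 and miR-301 family (3, 1 and 0), the miR-15 and miR-16 family (2, 1 and 0) and the miR-34 and miR-449 family (2, 1 and 0). The miR-297, miR-466, miR-467 and miR-669 stems taken by name were mixed too (14, 13 and 3). Calls of these last stems are uncertain because reads of near-identical copies may be divided among them. Stems of near-identical name were compared as well. Of 23 names with several lettered stems, 6 held calls for both arms, namely miR-34, miR-130 and, with the same uncertainty, miR-466, miR-467, miR-669 and miR-290, where miR-290a and miR-290b lie on opposite strands of 1 place and their reads may not be told apart. In the pair of miR-130a and miR-130b the first favoured its 3p arm (-5.13) and the second its 5p arm, a call that was lost when day 1, 3, 4 or 6 was left out.

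For 125 stems both arms had a RefSeq sequence, so the first base of the arms could be compared. The higher arm began with U in 65 stems (52.0%) and the lower arm in 26 (20.8%). In 52 stems U was first in the higher arm alone, in 13 in the lower arm alone, in 13 in both and in 47 in neither. Among the 61 stems with over 10-fold difference U was first in the higher arm alone in 33 and in the lower arm alone in 2. The pattern was seen for both sides of the hairpin, with U first in 37 of 60 called 5p arms against 12 of the 60 3p arms of the same stems, and in 21 of 50 called 3p arms against 10 of the 50 5p arms. The lower arm began more often with A (48 against 30 stems) and C (34 against 18). Mean length was 22.2 bases for higher and 22.1 for lower arms, and mean GC content 46.3% and 49.0%. These counts run across stems, which are not replicates and in part are paralogues, and no test was made. In the 8 stems of the miR-290 cluster with both sequences, which do not include miR-292, neither arm began with U.

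The spread between libraries was small for most miRNAs and very large for a few. It is the spread of same-day genotype differences, since day effects shared by both genotypes had been removed. A small SD is therefore no measure of steady expression between days. Among the 330 miRNAs with a mean of at least 100, the median SD of log2(value + 1) was 0.40, and it was at or under 0.5 in 215. The 10 largest SDs among them all belonged to miRNAs with 1 value at the floor, at 7.63 for miR-21a-5p, 5.55 for let-7g-5p, 5.42 for let-7f-5p, 5.18 for miR-200a-5p, 5.13 for let-7i-5p, 4.57 for let-7a-5p, 3.96 for miR-99b-3p, 3.95 for miR-871-3p, 3.80 for let-7d-5p and 3.71 for miR-196a-1-3p. The 5 let-7 members among them were at the floor on day 6, and the other 5 on day 5. In contrast miR-18b-5p, a member of the miR-106a-363 cluster, was at 2419, 2493, 2405, 2369 and 2506 (SD of log2 0.0347). The next smallest SDs were those of miR-425-5p (0.0670), miR-652-3p (0.0746), miR-466f-3p (0.0833) and miR-19a-3p (0.0934). Day 4 was the highest library for 182 miRNAs and the lowest for 187, day 5 the highest for 119 and the lowest for 167, and day 1 the highest for 135 and the lowest for 60. These counts are on the deposited values, of which day 5 had the lowest sum.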

How the data were processed

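Small RNA libraries of mES cells were analysed from the table of 592 miRNAs. According to the methods of the study, small RNA was ligated with the NEBNext kit, the authors aligned reads to miRBase with Bowtie2 and normalised the counts with DESeq2 (the sample labels name an mRNA kit instead), a batch correction was applied, values under 1 were set to 1, and miRNAs with low means in both genotypes were removed. The deposited values are therefore a normalised signal and not counts, and the number of reads behind a value is unknown. The submitters' processing notes name CASAVA 1.8, Bowtie2 2.2.1, Partek 6.6 and mm10.

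Shares are percent of a library's summed value, as mean ± SD over 5 libraries. Arm ratios are log2(5p + 1) minus log2(3p + 1), tested against 0 with limma 3.58.1 (R 4.3.3, intercept only, moderated variance, Benjamini-Hochberg over 179 stems). The script was tested on simulated data with the spread of the real arm ratios, in which 60 of 179 stems had a ratio other than 0. It recovered 64.0% of ratios of 1, 89.2% of 2 and 96.5% of 4 on the log2 scale. Of the calls made, 2.91% were false on average over 20 runs. In the data 160 of 179 stems were called, so these rates need not hold there. Neighbouring ranks were compared with an exact sign-flip test.

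Named miRNAs were the 20 of highest mean. For arms they were the 10 stems of highest summed mean, the 5 largest ratios in each direction without a floored value, and the 5 nearest 0 at a summed mean of at least 1000. Leading members of lists and of the 5 largest seed groups, and the 10 most and 5 least variable miRNAs with a mean of at least 100, were named too. A few more stems were named from lists after their values were seen. The members and lists were chosen with earlier results of these data known.

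Sequences came from RefSeq (GRCm38.p6), 463 matched by name and 4 by gene symbol. Positions came from the same table and GENCODE M21. Alternatives were other pseudocounts, filters on low values, each library left out, single clones, day 2 added, values before the floor and miR-292-5p left out.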

Additional observations from a re-analysis of the deposited data

Results flagged for a closer look

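Among 67 sets of 5 values (the 20 most abundant miRNAs, 24 list shares, the library totals and 22 arm ratios), 10 held a library whose gap to its nearest neighbour took more than 0.71 of the range. Chance flags about 1 in 20 such sets when they are independent, which these are not. The day 5 library stood apart in 7 of them, of which 3 restate 1 floored value. Same-day values are tied by their sum, so whether the floxed library or its Trim71-/- partner deviated cannot be told apart. There miR-21a-5p was at 1, the miR-21a share was 0.00171%, and the miR-21a arm ratio was -4.55 on the log2 scale. Shares on day 5 were the highest for the miR-29 family (0.112%), the miR-181 family (0.165%), the miR-221 and miR-222 cluster (0.00838%) and the miR-191 and miR-425 cluster (0.494%), beside the lowest summed value of the 5 libraries (2742673). On day 6 the let-7 and miR-98 share was 0.0208% and the arm ratio of miR-292b was -1.05. On day 1 the arm ratio of miR-294 was -6.86. The summed values behind these shares differed in this respect. On day 5 the miR-181 family was at 4516, within the 4039 to 5213 of the other days, and the miR-191 and miR-425 cluster at 13537, within 12593 to 15079. For the miR-29 family 3079 on day 5 lay above the 1497 to 2139 of the other days, and for the miR-221 and miR-222 cluster 229.96 lay above 107 to 166.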

How the results depend on the processing

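The deposited values hold no read depth, a floor of 1 replaced values that the batch correction had taken below it, and the correction had removed day effects shared by both genotypes, so the spread given is not that between independent cultures. The p-values and calls rest on that same spread. No paired analysis was possible because no groups were compared, while arm ratios and neighbouring ranks were themselves compared within libraries. Clones were not compared, since each day held 1 clone and same-day sums had been made equal. Leaving out 1 library at a time gave 79 to 84 stems called 5p-higher and 70 to 80 called 3p-higher, 57.1% to 57.8% for the miR-290 cluster, 0.414% to 0.486% for the miR-302 cluster, 18.8% to 22.4% for miR-292-5p, and 40 to 43 miRNAs for 90% of the summed mean. With values before the floor the miR-290 cluster held 58.6%, and without miR-292-5p 46.3%, where miR-291a-3p led with 14.5%, since the total was then smaller. All other alternatives for these 6 results stayed within the spread of the libraries, or within 1.5 times for counts, including the alternative without days 5 and 6, which was chosen after seeing the data. Adding day 2 says nothing here, since in 592 of 592 miRNAs it equals the mean of the other 5 libraries before the floor to within 0.1%. The ratio of miR-292b, near 0 throughout, ran from -0.21 to 0.15 with 1 library left out, changed sign without day 6 (0.15), and was 0.028 with clone E3 alone and 0.15 without days 5 and 6. Of 533 values of the other shares 23 moved by more than their SD, each by leaving miR-292-5p out of the total. Of 307 values of named arm ratios 281 kept direction and side of the threshold.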
